A study of Mus musculus with 16 samples.

Results

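Genes that carried no peak of monoubiquitylated histone H2B (H2Bub1) in wild-type cells and gained one in Atxn7l3-/- cells of 2 cell types were collected from the H2Bub1 peak lists. Of 20807 protein-coding genes on the 19 autosomes, 828 genes met this condition, 3.98% of all and 9.50% of the 8719 genes without a peak in either wild-type list. A gene met it when no base of its body, from the transcription start site (TSS) to the transcript end, lay inside a wild-type peak and at least 1 base lay inside a peak of both Atxn7l3-/- lists. Taken separately, 9.53% of all genes had an H2Bub1 peak in Atxn7l3-/- (KO) and none in wild-type (WT) mouse embryonic stem cells (mESCs), and 22.9% did in mouse embryonic fibroblasts (MEFs). Of the genes without a WT peak, 18.9% gained one in KO mESCs and 15.7% in KO MEFs. The H2Bub1 lists themselves chose these genes, so their H2Bub1 values are given as a description without a test. The Pol II lists, promoter sequence and function took no part in the choice. Gene length entered it, since a longer body has more bases that a peak can reach.

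Ubiquitin is placed on histone H2B by the RNF20 and RNF40 ligase, which travels with elongating RNA polymerase II (Pol II), so that H2Bub1 lies mainly over the transcribed part of active genes just behind the TSS. It is removed by related ubiquitin proteases, USP22, USP27X and USP51, which need the adaptor protein ATXN7L3 to act on H2B. The genes described here are those where a peak was called without the adaptor and none with it.

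Chromatin immunoprecipitation and sequencing (ChIP-seq) with antibodies against H2Bub1 and against RPB1, the largest Pol II subunit, was carried out in both cell types, of the DBA/2 x C57BL/6 strain. WT stands for the genotype Atxn7l3+/+ and KO for Atxn7l3-/-, a null allele present in every cell of the animal. The mESC lines were derived from blastocysts and were grown off feeders with LIF, foetal calf serum, PD0325901 and CH99021. The MEFs were primary cells made from embryos at E10.5 without head and gut, and no further treatment was applied to any group. Each of the 8 groups (2 cell types, 2 genotypes, 2 antibodies) is 1 library, so differences between groups are given without p-values and could not be checked on replicates. The 95% intervals beside percentages are exact Clopper-Pearson intervals, which cover counting error over genes of 1 list only.

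The H2Bub1 lists held 40979 (WT) and 48952 (KO) peaks in mESCs and 19725 (WT) and 28856 (KO) in MEFs, and the Pol II lists held from 11963 peaks in KO mESCs to 45870 in WT MEFs. The peak lists do not give the number of reads behind them, and read counts were not used here. Pou5f1, Sox2 and Nanog, which define pluripotent cells, had a Pol II promoter peak in both mESC lists and in neither MEF list. Col1a1, Col1a2, Thy1 and Twist2, genes of fibroblasts, had one in both MEF lists and in neither mESC list. Of the other pluripotency genes examined, Esrrb had no Pol II promoter peak in any list, Klf4 had one in all 4 and Tfcp2l1 had one in both mESC lists and in KO MEFs, where its fold was 7.08 and H2Bub1 covered 7.82% of its body. Of the genes for ATXN7L3, its proteases and partner and the ligase, none was among the 828 genes: Atxn7l3, Usp22, Usp27x, Eny2, Rnf20 and Rnf40 had H2Bub1 in a WT list, and Usp51 had none in any list. Usp27x and Usp51 lie on chromosome X and were outside the gene set in any case.

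Promoter sequences are shown for 6 of the genes, because Pol II and H2Bub1 peaks met there in different ways. Each runs from 250 bases before to 50 bases after the TSS of the gene record, read 5′ to 3′ on the strand of the gene from the GRCm38 genome (mm10), with capitals at every CG. Osgep (chr14:50924844-50925143, minus strand) and Tmem230 (chr2:132247758-132248057, minus strand) had a Pol II promoter peak in all 4 Pol II lists. They held 27 and 16 CG in 300 bases.
Osgep: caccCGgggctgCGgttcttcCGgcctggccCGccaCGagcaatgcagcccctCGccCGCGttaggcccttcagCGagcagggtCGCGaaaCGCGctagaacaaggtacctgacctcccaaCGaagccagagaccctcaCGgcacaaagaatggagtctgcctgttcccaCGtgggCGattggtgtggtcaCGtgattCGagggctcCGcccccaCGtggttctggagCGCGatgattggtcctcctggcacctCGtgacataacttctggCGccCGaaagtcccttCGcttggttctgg
Tmem230: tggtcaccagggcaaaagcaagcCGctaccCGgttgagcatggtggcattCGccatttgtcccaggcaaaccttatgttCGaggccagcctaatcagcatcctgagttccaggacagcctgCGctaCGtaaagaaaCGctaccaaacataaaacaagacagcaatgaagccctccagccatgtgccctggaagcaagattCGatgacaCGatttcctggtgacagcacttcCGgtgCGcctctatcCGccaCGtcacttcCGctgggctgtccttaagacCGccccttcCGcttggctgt
Nr6a1 (chr2:38927639-38927938, minus strand) and Senp7 (chr16:56048088-56048387, plus strand) had no Pol II peak at this start in any list, and each promoter held 4 CG. Both had a Pol II peak at another annotated start in both MEF lists.
Nr6a1: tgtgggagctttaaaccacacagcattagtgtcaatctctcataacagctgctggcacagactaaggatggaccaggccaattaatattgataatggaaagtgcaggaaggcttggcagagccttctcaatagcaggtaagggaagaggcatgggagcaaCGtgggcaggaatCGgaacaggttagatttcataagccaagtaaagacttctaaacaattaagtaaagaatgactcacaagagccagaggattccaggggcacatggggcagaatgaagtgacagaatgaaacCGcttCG
Senp7: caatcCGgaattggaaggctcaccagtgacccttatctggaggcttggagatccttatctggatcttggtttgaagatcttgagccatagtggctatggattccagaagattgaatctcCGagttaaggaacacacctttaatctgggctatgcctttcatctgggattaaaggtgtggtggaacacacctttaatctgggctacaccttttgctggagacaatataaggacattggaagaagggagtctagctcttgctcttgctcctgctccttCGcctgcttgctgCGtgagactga
Zfp975 (chr7:42692693-42692992, minus strand) and Zfp53 (chr17:21488748-21489047, plus strand) belong to the largest gene family among the 828 genes and had Pol II peaks at these starts in the MEF lists only. They held 7 and 9 CG.
Zfp975: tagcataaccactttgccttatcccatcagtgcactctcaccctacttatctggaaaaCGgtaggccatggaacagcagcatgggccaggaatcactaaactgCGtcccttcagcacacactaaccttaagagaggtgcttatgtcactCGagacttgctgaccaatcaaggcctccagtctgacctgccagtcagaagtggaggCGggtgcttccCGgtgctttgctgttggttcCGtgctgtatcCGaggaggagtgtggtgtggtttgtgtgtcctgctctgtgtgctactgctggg
Zfp53: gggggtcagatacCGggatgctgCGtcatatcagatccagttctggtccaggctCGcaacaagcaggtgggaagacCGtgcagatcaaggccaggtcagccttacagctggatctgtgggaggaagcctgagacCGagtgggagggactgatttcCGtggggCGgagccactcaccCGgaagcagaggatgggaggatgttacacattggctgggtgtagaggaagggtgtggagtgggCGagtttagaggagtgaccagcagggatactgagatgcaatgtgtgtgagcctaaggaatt

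H2Bub1 covered more of these genes in KO MEFs than in KO mESCs. In KO mESCs a median of 7.79% of the body was inside peaks (quartiles 2.71 and 24.2%), in KO MEFs a median of 23.3% (quartiles 8.28 and 50.9%), and the share was higher in KO MEFs for 620 of the 828 genes (74.9%). The median covered length was 1534 bp in KO mESCs and 3542 bp in KO MEFs. Together the peaks covered 1.82 Mb of the 37.0 Mb of gene bodies in KO mESCs and 6.47 Mb in KO MEFs. Across the 828 genes the covered shares of the cell types ranked alike, with a Spearman rank correlation of 0.59, but the covered lengths did so less, with a correlation of 0.25. Both shares are divided by the same gene length, and genes are not independent replicates. KO MEF peaks are wider in general, with a median of 2766 bp against 1355 bp in KO mESCs, and the part of this in the difference was not tested.

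**Figure D1:**
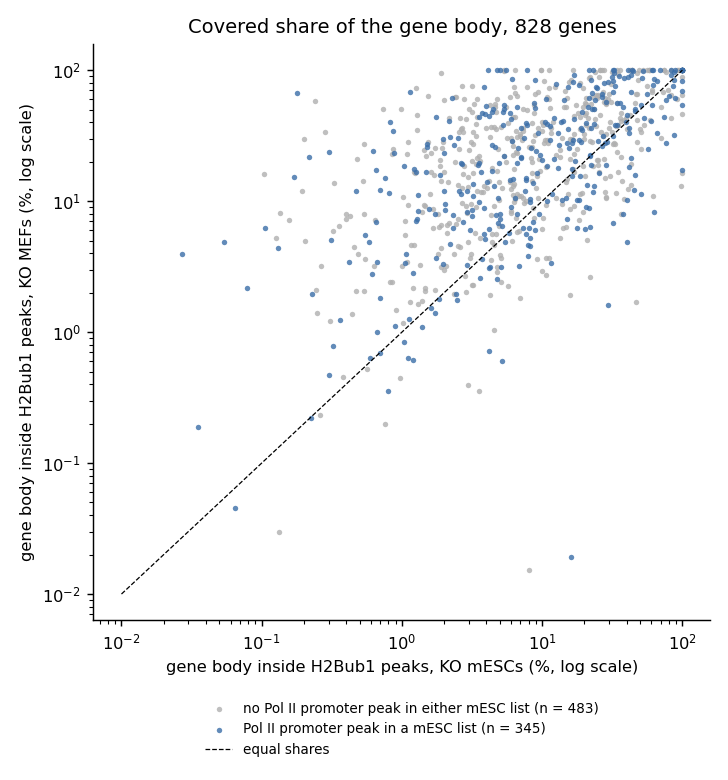
Covered share of the gene body in KO mESCs (x axis, %, log scale) and KO MEFs (y axis, %, log scale), with each point 1 of the 828 genes and the dashed line marking equal shares. Blue marks the 345 genes whose promoter had a Pol II peak in at least 1 mESC list, grey the 483 without. The cloud lies above the line for 620 genes, and blue and grey points lie in the same range.

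The same bases were often covered in both cell types. At least 1 base lay inside a peak of both KO lists in 768 genes (92.8%), and in 541 genes (65.3%) at least 90% of the smaller covered set lay inside the peaks of the other list. The single gene body was usually reached by few peaks, with 1 peak in 528 genes in KO mESCs and in 527 genes in KO MEFs, and 3 or more in 113 and 146 genes. The highest peak fold, the authors' ratio of a peak over its local background, had a median of 2.84 in KO mESCs (range 2.05 to 5.75) and 2.96 in KO MEFs (range 1.75 to 7.80). Many of the peaks were close to the calling threshold: a peak with a −log10 q of at least 3 was present in 370 genes in KO mESCs (44.7%), in 661 genes in KO MEFs (79.8%) and in both lists for 326 genes (39.4%).

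Long genes were covered over a smaller share and, in KO MEFs, over more bases. The 124 genes under 5000 bp had a median covered share of 49.8% in KO mESCs and 87.8% in KO MEFs. The 178 genes of 50000 bp and more had 1.41% and 7.20%. In KO mESCs the covered length hardly moved with gene length, with medians of 1393 bp in the shortest and 1478 bp in the longest class and a Spearman rank correlation of 0.06 over 828 genes. In KO MEFs it went from 1936 bp to 8277 bp, with a correlation of 0.41. The genes themselves had a median length of 19054 bp, against 17629 bp for all genes and 23828 bp for genes with a WT peak. Genes of 20000 to 50000 bp were the class with the highest share, with 4.38% of all such genes and 13.8% of those without a WT peak, and genes under 5000 bp the lowest, with 3.28% and 5.28%.

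H2Bub1 lay near the start of these genes. The middle of the covered bases had a median place at 16.1% of the gene body in KO mESCs and 20.7% in KO MEFs, counted from the TSS. It depended on the threshold: among genes with KO peaks of a −log10 q of at least 3 it was 5.24% and 15.0%, and among genes covered over at least 10% it was 28.5% and 33.5%. The TSS itself was inside a peak in 367 genes in KO mESCs (44.3%, interval 40.9 to 47.8%), in 446 genes in KO MEFs (53.9%, interval 50.4 to 57.3%) and in both for 287 genes. The transcript end was inside a peak in 78 and 123 genes. Read as a profile, the share of the 828 genes inside a KO mESC peak was highest at 300 bp after the TSS, with 68.6%, and had fallen to 18.8% at 3000 bp. In KO MEFs it was highest at 500 bp, with 80.1%, and was 50.7% at 3000 bp and 24.2% at 10000 bp. Upstream, at 1000 bp before the TSS, it was 20.5% and 29.7%.

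**Figure D2:**
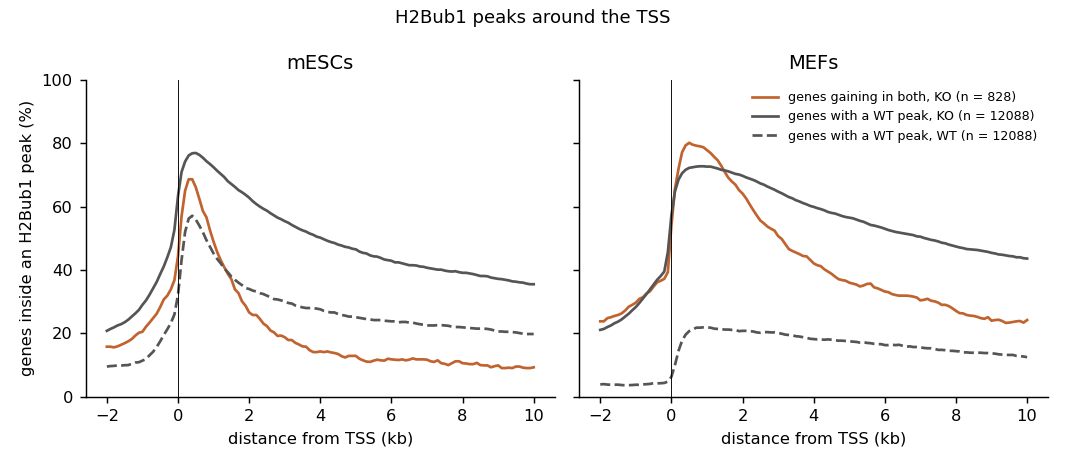
Share of genes inside an H2Bub1 peak (y axis, %) by distance from the TSS (x axis, kb) in mESCs (left) and MEFs (right). The orange line shows the 828 genes in KO, and the grey lines the 12088 genes with a WT peak in KO (solid) and WT (dashed). The orange line has its maximum at 300 bp in mESCs and 500 bp in MEFs and falls off faster downstream than the solid grey line.

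Genes with a WT peak differed from them mainly further downstream. In KO mESCs, 76.9% of the 12088 genes with a WT peak were inside a peak at 500 bp and 55.4% at 3000 bp, against 66.1% and 18.8% of the 828 genes. In KO MEFs the shares were 72.2% and 64.7%, against 80.1% and 50.7%. Because the lists chose the classes, this is a description of the lists. Exons made up 9.80% of the gene bodies of the 828 genes, 26.8% of the bases covered in KO mESCs and 11.9% of those covered in KO MEFs. Per gene, the median exonic share was 19.6% of the body, 27.2% of the covered bases in KO mESCs and 15.1% in KO MEFs. The KO mESC share was above that of the body by both measures, and the KO MEF share was above it when bases were pooled and below it in the median gene.

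Part of the gains bordered on other genes or on WT peaks. For 540 of the 828 genes (65.2%, interval 61.9 to 68.5%) both KO lists had a peak in the gene that touched no other protein-coding gene. Another protein-coding gene overlapped 232 of the genes (28.0%, against 22.1% of all genes), and reads of overlapping genes cannot be told apart in these lists. In 178 genes (21.5%) a KO peak that reached into the gene also overlapped a WT peak of the same cell type outside it. The nearest WT peak lay at a median of 13678 bp in mESCs and 38172 bp in MEFs, and within 5000 bp in 277 and 128 genes. Peaks were also shared between members: 70 genes shared a KO mESC peak and 84 a KO MEF peak with another of the 828 genes, so that the genes fell into 781 separate groups, of which 742 held 1 gene. The largest group was the Ugt1a cluster with Dnajb3, 9 genes on chromosome 1.

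The genes with the most bases covered in both KO lists were Itpr1, Atp8a1, BC052040, Yipf1, Ehd3 and Nemp1, and none of their bases lay inside a WT H2Bub1 peak. Itpr1, the endoplasmic reticulum calcium channel opened by inositol trisphosphate, lies on the plus strand of chromosome 6 from 108213096 to 108551109 (mm10). H2Bub1 covered 20332 bp of it in KO mESCs, in 18 peaks, and 143430 bp in KO MEFs, in 10 peaks. The longest KO MEF peak over Itpr1 was 66447 bp wide and the longest KO mESC peak 2899 bp. In KO MEFs, peaks of 55011 and 66447 bp held most of the covered bases and the others were 539 to 8155 bp wide, while the KO mESC peaks were all short, with a fold between 2.31 and 3.13. The Pol II promoter fold of Itpr1 was 4.58 (WT) and 6.28 (KO) in mESCs and 20.2 (WT) and 21.4 (KO) in MEFs.

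Atp8a1, a phospholipid flippase, was covered over 17656 bp in KO mESCs and 33455 bp in KO MEFs, mostly from the TSS inwards: a 13720 bp peak in KO mESCs and a 33044 bp peak in KO MEFs both began within 39 bp of the TSS. It had no Pol II promoter peak in WT mESCs, a fold of 3.61 in KO mESCs, and folds of 7.69 (WT) and 16.3 (KO) in MEFs. BC052040, a gene with a provisional name, had 13 KO mESC peaks over 15187 bp and 6 KO MEF peaks over 29466 bp. Yipf1, a membrane protein of the Golgi, had 14330 bp and 15360 bp covered, close to equal in the cell types. Its Pol II promoter peaks were in the MEF lists only, with a fold of 6.71 in WT and 8.04 in KO. Ehd3, which acts in endosome recycling, had 46.9% of its 27961 bp covered in KO mESCs and 65.6% in KO MEFs, and also had Pol II promoter peaks in the MEF lists only.

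Nemp1, an inner nuclear membrane protein, was the gene of the 6 with the closest WT peak. H2Bub1 covered 14208 bp of it in KO mESCs and 12362 bp in KO MEFs, and the nearest WT peaks lay 1236 bp and 171 bp away. In both KO lists a peak crossed its TSS from the upstream side and another began more than 10000 bp inside the gene, with 127677043 and 127677013 on chromosome 10 as the first bases. The inner peaks of the cell types began almost at the same base. In both cell types a KO peak that reached into Nemp1 also overlapped a WT peak outside the gene.

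**Figure D3:**
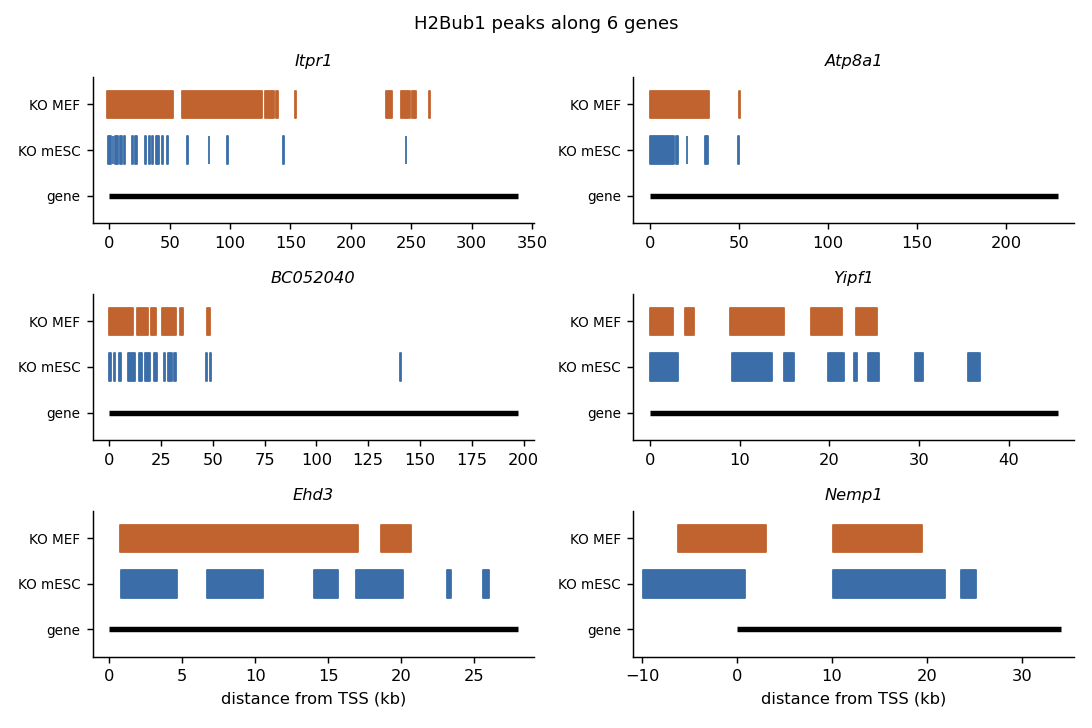
H2Bub1 peaks of KO mESCs (blue) and KO MEFs (orange) along the 6 genes with the most bases covered in both lists, by distance from the TSS (x axis, kb). The black bar is the gene body, and each gene has its own scale. Itpr1 shows 18 short KO mESC peaks within the range of 10 KO MEF peaks, and Ehd3 and Nemp1 show peaks at like places in both lists.

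Per length, among genes of at least 5000 bp, Timm22, 2310030G06Rik, Gabarapl1, Vps72, Mrps33 and Lxn had the highest covered share in both lists. Timm22, a mitochondrial inner membrane import protein, was covered over 86.2% of its 9341 bp in KO mESCs and 76.2% in KO MEFs. Gabarapl1, an autophagosome protein of the ATG8 family, had 73.8% and 100%. Vps72, a subunit of chromatin remodellers that deposit H2A.Z, had 79.8% and 63.0%. These genes thus went from no WT peak to a peak over most of the body, and which cell type had the larger share differed between them. Gabarapl1 also lay far from any WT peak, 690186 bp in mESCs and 348459 bp in MEFs, whereas the nearest WT mESC peak to Timm22 was 642 bp away.

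The share differed between the KO lists by as much as 95.9 percentage points. Glt28d2, Gpr62, Gm9958 and Fcor were covered over 100% in KO MEFs and over 4.12 to 5.36% in KO mESCs. Rangrf was covered over 100% in KO mESCs and 17.2% in KO MEFs, and Mettl17 over 87.5% and 31.9%. The most bases covered in any of the 828 genes were 296295 bp at Plxna4, a semaphorin receptor, in KO MEFs, summed over 18 peaks. These genes were singled out after their values had been seen.

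Pol II was present at the promoters of these genes in MEFs and at fewer of them in mESCs. A Pol II promoter peak, meaning a Pol II peak within 1000 bp of the TSS on either side, was called for 257 of the 828 genes in WT mESCs (31.0%, interval 27.9 to 34.3%), beside 35.3% of all autosomal genes. In KO mESCs it was called for 263 genes (31.8%, interval 28.6 to 35.1%), beside 32.1%. The mESC shares of the 828 genes were thus at or a little under the level of all genes. In WT MEFs the count was 718 genes (86.7%, interval 84.2 to 89.0%), beside 55.3% of all genes, and in KO MEFs 724 genes (87.4%, interval 85.0 to 89.6%), beside 52.3%. The MEF shares were thus above that of all genes and above that of genes with a WT H2Bub1 peak, of which 80.5% (WT) and 78.0% (KO) had Pol II at the promoter in MEFs. In mESCs the genes with a WT peak were higher, with 56.7% in WT and 51.6% in KO. The MEF Pol II lists hold more peaks than the mESC lists, so the levels of the cell types are not on 1 scale, and the part of list length in these shares was not tested.

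**Figure D4:**
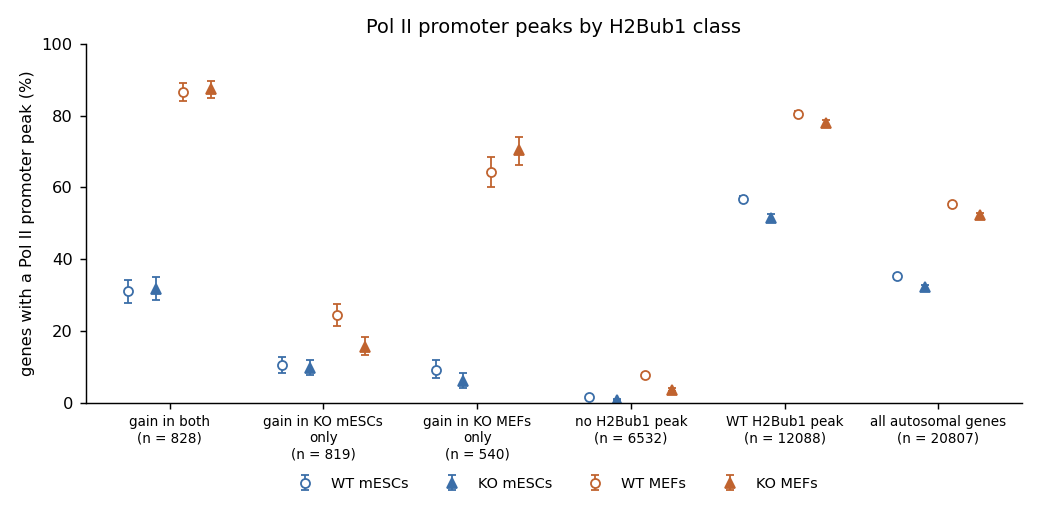
Share of genes with a Pol II promoter peak (y axis, %) in WT (open circles) and KO (filled triangles) mESCs (blue) and MEFs (orange) for each H2Bub1 class (x axis), with exact 95% intervals. The 828 genes that gained H2Bub1 in both cell types sit at 31.0 and 31.8% in mESCs and at 86.7 and 87.4% in MEFs, and the 6532 genes without H2Bub1 in any list at 0.842 to 7.67%.

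Genes that gained H2Bub1 in only 1 cell type had fewer Pol II promoter peaks. Of the 819 genes that gained in KO mESCs only, 10.4% (WT) and 9.65% (KO) had one in mESCs, and 24.3% (WT) and 15.6% (KO) in MEFs. Of the 540 genes that gained in KO MEFs only, it was 9.07% (WT) and 5.93% (KO) in mESCs, and 64.4% (WT) and 70.4% (KO) in MEFs. None of these intervals overlapped that of the 828 genes in the same Pol II list. The level of Pol II also differed: among genes with a promoter peak, the median Pol II fold in WT MEFs was 11.2 for the 828 genes, 5.97 and 8.73 for the genes that gained in KO mESCs only and in KO MEFs only, and 14.2 for genes with a WT H2Bub1 peak. In WT mESCs the medians were closer, at 4.01, 3.55, 4.04 and 4.43.

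The commonest combination was Pol II in both MEF lists and in neither mESC list, found for 362 of the 828 genes (43.7%) and 14.2% of all genes. A promoter peak in all 4 lists was found for 174 genes (26.1% of all genes had one), and in no list for 81 genes (9.78%, against 41.1%). Of the 174 genes, 65.5% had the TSS inside a KO mESC H2Bub1 peak, while of the 362 genes with Pol II in MEFs only 38.4% did. In KO MEFs the shares were 68.4% and 56.9%. The covered share of the body differed less between these groups, with medians of 9.05% and 8.58% in KO mESCs and of 27.2% and 28.3% in KO MEFs. In all, 483 of the 828 genes, the 362 included, had no Pol II promoter peak called in mESCs, in which the Pol II lists are shorter than in MEFs.

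Whether a gene had Pol II at its promoter went with H2Bub1 at its TSS within the same cells. Of the 263 genes whose promoter carried Pol II in KO mESCs, 62.0% had the TSS inside an H2Bub1 peak of KO mESCs, against 36.1% of the 565 genes without one. In KO MEFs it was 59.8% of 724 genes against 12.5% of 104 genes. The median covered length was 1770 bp with and 1393 bp without Pol II in KO mESCs, and 3698 bp and 2297 bp in KO MEFs. These are splits of genes chosen by their H2Bub1 peaks and are a description.

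As the lists were deposited, like numbers of these promoters had Pol II in WT and KO. In mESCs, 175 genes had a promoter peak in both genotypes (21.1%, background over all genes 27.2%), 82 in WT only (9.90%, background 8.04%) and 88 in KO only (10.6%, interval 8.61 to 12.9%, background 4.85%). In MEFs, 698 genes had one in both (84.3%, background 50.8%), 20 in WT only (2.42%, background 4.43%) and 26 in KO only (3.14%, interval 2.06 to 4.57%, background 1.51%). The share called in KO only was thus above that of all genes in both cell types. In mESCs the interval of the share in WT only, 7.95 to 12.1%, held its background. H2Bub1 lies mainly over active genes and the genes were chosen by KO H2Bub1 peaks, so this comparison is not independent of the choice. The WT mESC Pol II list is the longer one, with 17074 peaks against 11963. In a setting that brought the WT and KO lists of both antibodies to equal length, and so changed the gene set as well, the numbers in mESCs were no longer alike. Of the 733 genes that then met the condition, 24.7% (WT) and 34.0% (KO) had Pol II at the promoter in mESCs, against 30.0% and 32.1% of all genes, with 45 genes called only in WT (6.14%, all genes 5.41%) and 113 only in KO (15.4%, all genes 7.52%). The MEF shares were 88.3% (WT) and 90.3% (KO), against 54.4% and 52.3%. Where both genotypes had a peak, the log2 ratio of Pol II fold, KO over WT, had a median of 0.01 in mESCs, with 89 of 175 genes higher in KO, and of −0.20 in MEFs, with 252 of 698 genes higher in KO. Over all genes it was 0.02 and −0.22, so the 828 genes lay near the background. Since each library has its own background, folds set no level across libraries.

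Osgep, Tmem230, Gbe1, Etfrf1 and Gm9903 were the genes with the highest lowest Pol II fold over the 4 lists. At Osgep, a tRNA modification enzyme, the fold was 8.18 (WT) and 8.64 (KO) in mESCs and 16.4 (WT) and 16.9 (KO) in MEFs, and H2Bub1 covered 3017 bp in KO mESCs and 5117 bp in KO MEFs. At Tmem230, a membrane protein of vesicles, it was 7.14 and 7.99 in mESCs and 27.6 and 17.9 in MEFs, with 3558 bp and 5656 bp of H2Bub1. These genes had Pol II peaks in WT cells of both types without an H2Bub1 peak over the body. Another protein-coding gene lay 75 bp from Osgep and 290 bp from Gm9903 and overlapped Etfrf1. Pol II peaks counted within 1000 bp of their TSS may therefore belong to the neighbour. At Gbe1, the glycogen branching enzyme, the Pol II folds were 7.86, 6.90, 22.4 and 20.8, but H2Bub1 covered only 332 bp of the 255768 bp in KO mESCs and 11317 bp in KO MEFs. The promoter of Osgep is the most CG-rich of the 6 that are shown. The nearest WT H2Bub1 peak to Osgep lay 118 bp away in mESCs, and that to Gbe1 2093681 bp away. A KO mESC peak that reached into Osgep also overlapped a WT mESC peak outside the gene.

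Pol II peaks in both KO lists and in neither WT list were called at 3 genes (0.362%, against 0.0721% of all genes), Neil3, Gca and Car2. Car2, a carbonic anhydrase, had a Pol II fold of 3.35 in KO mESCs and 2.61 in KO MEFs, with 2174 bp and 1052 bp of H2Bub1. Neil3, a DNA glycosylase, had 4.53 and 2.92, and Gca, a calcium-binding protein, 4.73 and 2.77. The reverse, a peak in both WT lists and in neither KO list, was called at Gm13212 and Stx4a (0.242%, against 0.490% of all genes), with folds of 2.83 and 3.46 at Stx4a. The MEF folds of these genes were below the medians of 11.2 (WT) and 9.47 (KO) over the 828 genes, while in KO mESCs Neil3 and Gca lay above the median of 4.07. Stx4a had Pol II peaks in all 4 lists at another annotated start.

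Of the 81 genes without a Pol II peak at the TSS of the gene record, 41 had one at another annotated start. With any annotated start counted, the share with Pol II in at least 1 list went from 90.2 to 95.2% of the 828 genes. Over all genes it went from 58.9 to 62.7%. The 81 genes had the TSS inside an H2Bub1 peak in 8.64% in KO mESCs and 12.3% in KO MEFs, far less than the genes with Pol II. Arhgap26 has 2 gene records that share the same 8 KO mESC and 8 KO MEF peaks. The longer record had no Pol II peak at its start in any list, and the other had folds of 3.68 (WT) and 5.91 (KO) in mESCs and 5.13 (WT) and 8.64 (KO) in MEFs. Nr6a1, an orphan nuclear receptor of germ cells and early embryos, had 9391 bp of H2Bub1 in KO mESCs in 6 peaks and 113048 bp, 55.3% of its body, in KO MEFs in 23 peaks. Senp7, a SUMO protease, had 8898 bp and 19169 bp. Nr6a1, Senp7, Prr5l and Intu had Pol II peaks at another annotated start in both MEF lists and in no mESC list.

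The promoters of the 828 genes were rich in CG. The CpG ratio, the number of CG over that expected from the C and G content, had a median of 0.660 (quartiles 0.421 and 0.828), against 0.540 for all genes, 0.734 for genes with a WT peak and 0.176 for genes without H2Bub1 in any list. Genes that gained in KO mESCs only or in KO MEFs only had medians of 0.382 and 0.416. The 828 genes were thus nearer to the genes with a WT peak than to the genes that gained in only 1 cell type. The median was 0.748 for the 174 genes with Pol II in all lists, 0.631 for the 362 with Pol II in MEFs only and 0.247 for the 81 with none.

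Motifs of 5 kinds were searched in the 300 bases of each promoter on both strands, and no motif contains another. The GC box (GGGCGG) was present in 53.3% of the 828 promoters (interval 49.8 to 56.7%), 43.7% of all and 14.2% of those of genes without H2Bub1. The ETS core (CCGGAA) was present in 26.8% (23.8 to 30.0%), 17.9% and 4.64%. The TATA box (TATAAA) was less common, with 8.57% (6.76 to 10.7%), 12.7% and 23.9%. The CCAAT box (CCAAT) was at 41.9%, 38.6% and 39.8%, and the E-box (CACGTG) at 8.70%, 7.82% and 4.15%. Among genes with a WT peak the shares were 59.8% (GC box), 25.1% (ETS core), 7.05% (TATA box), 37.8% (CCAAT box) and 9.84% (E-box). The GC box, the ETS core and the E-box contain CG, and the part of CG content in these shares was not tested. Of the printed promoters, Osgep holds 4 of the 5 motifs and Nr6a1 only the CCAAT box.

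Zinc finger genes named Zfp, most of which encode transcription factors with tandem C2H2 fingers, were the list with the largest share of its genes. Of 385 such genes, 54 were among the 828 (14.0%, interval 10.7 to 17.9%, background 3.98%), and of the 118 without a WT peak 45.8% were, against 9.50% of all genes without one. By that second measure ribosomal protein genes were higher, with 8 of 16. Of the 54 genes, 15 lie on chromosome 7 (of 92 Zfp genes there), 15 on chromosome 13 (of 36) and 7 on chromosome 17 (of 46). The median covered share was 7.17% in KO mESCs and 29.8% in KO MEFs. In mESCs 6 genes (WT) and 3 genes (KO) had Pol II at the promoter, in MEFs 46 in each genotype. Over the whole list of 385 genes the shares were 38.4% (WT) and 31.7% (KO) in mESCs and 81.6% and 78.7% in MEFs, so the MEF count lay near that of the list and of the 828 genes and the mESC counts were lower. For 45 of the 54 both KO lists had a peak that touched no other protein-coding gene.

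Zfp975, on chromosome 7 from 42660105 to 42692742, had 5727 bp of H2Bub1 in KO mESCs and 17546 bp in KO MEFs. Its Pol II promoter fold was 14.1 (WT) and 8.04 (KO) in MEFs, without a peak in mESCs. Zfp53, on chromosome 17 from 21488998 to 21510473, had 5190 bp and 13922 bp, and Pol II folds of 7.03 and 12.1 in MEFs. In both genes H2Bub1 included the TSS in both KO lists. Zinc finger genes of other names (Zscan, Zkscan, Zbtb, Zc3h, Zdhhc, Zmy, Prdm and Krab) made up 5 of 136 (3.68%), near the background, and 5 of the 21 without a WT peak (23.8%, background 9.50%). Among them was Prdm9, the meiotic histone methyltransferase that places recombination sites, with 5.02% covered in KO mESCs and 3.85% in KO MEFs and a Pol II fold of 12.6 in WT MEFs.

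**Figure D5:**
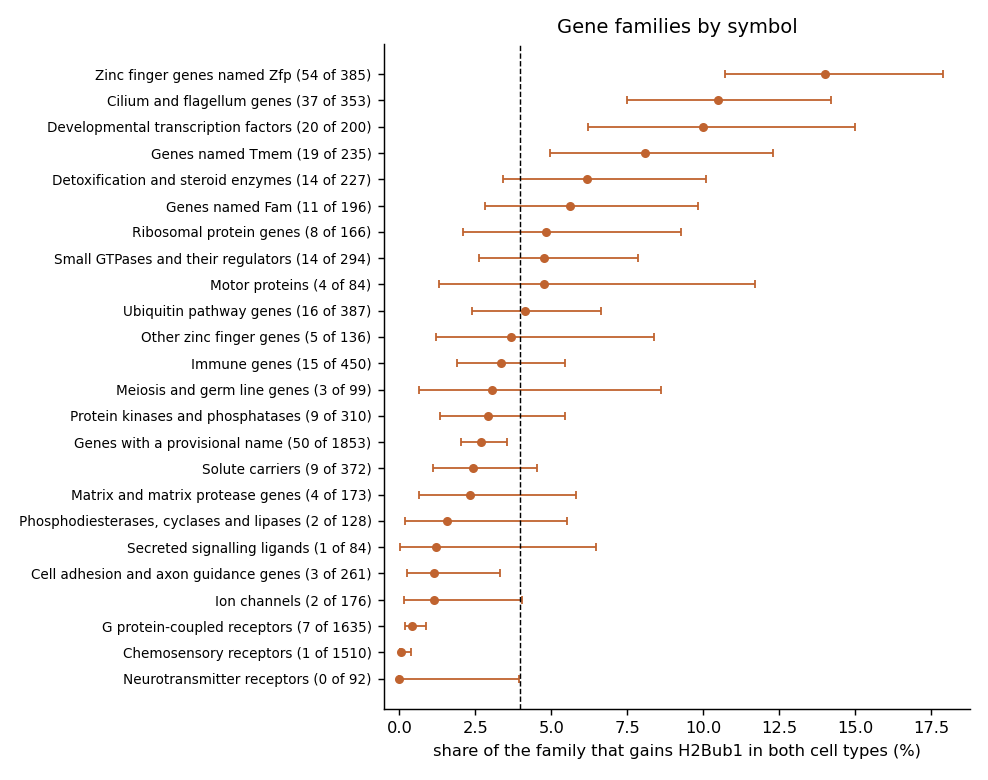
Share of each gene family, collected by gene symbol, that gained H2Bub1 in both cell types (x axis, %), with exact 95% intervals and the counts beside each name. The dashed line marks the 3.98% of all autosomal genes. Zfp genes stand at 14.0% and the chemosensory receptors at 0.0662%.

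Developmental transcription factors made up 20 of the 828 genes, of 200 on the list (10.0%, interval 6.22 to 15.0%, against 3.98% of all genes), and 23.3% of the 86 without a WT peak, against 9.50% of all such genes. Of these, 12 were Hox genes, which set position along the body axis and lie in shared clusters, of 39 on the autosomes (30.8%, against 3.98% of all genes). Hox genes were thus most of the 20, and the interval of the list counts clustered genes as separate. A Pol II promoter peak was called in 11 of the 12 Hox genes in WT MEFs, in 7 in KO MEFs, in none in WT mESCs and in 1, Hoxd9, in KO mESCs. Over the whole list of developmental factors the shares were 55.0% and 42.5% in WT and KO MEFs and 24.0% and 22.0% in WT and KO mESCs, and over all genes 55.3% and 52.3% in WT and KO MEFs. The KO MEF Pol II list was also the shorter, with 32232 peaks against 45870 in WT MEFs. At Hoxa9, Hoxa10, Hoxc4 and Hoxc9 the WT MEF folds were 12.2, 13.3, 2.85 and 3.73 and no promoter peak was called in KO MEFs. Hoxb4 differed from these, with Pol II called in both MEF lists, and had 82.7% of its body covered in KO mESCs and 100% in KO MEFs. Hox genes lie close together, and 3 of the 12 had a peak in both KO lists that touched no other protein-coding gene.

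Gata3, Gata4 and Gata6, zinc finger factors of blood, heart and endoderm development, were on the list as well. Gata3 was covered over 38.6% in KO mESCs and 10.4% in KO MEFs and had no Pol II peak at the start of its gene record but one at another annotated start in both MEF lists. Gata4 had 2.43% and 62.3%, with a Pol II peak in KO MEFs only, at a fold of 4.06. Gata6 had 9.86% and 100%, with a Pol II fold of 6.37 in WT MEFs and 22.2 in KO MEFs. Tbx5, a T-box factor of heart and forelimb, had a Pol II fold of 7.55 in WT MEFs and no peak in KO MEFs, with 1.82% and 3.98% covered.

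Genes of the cilium and flagellum list made up 37 of 353 (interval 7.49 to 14.2%, against 3.98% of all genes), and 26.6% of the 139 without a WT peak, against 9.50%. Of the 37 genes, 36 had Pol II at the promoter in each MEF list, beside 86.7% and 87.4% of the 828 genes and 70.5% and 66.9% of the list. In mESCs 13 (WT) and 12 (KO) had it, near the shares of the whole list, 34.0% and 31.2%. The list was collected by symbol and includes Ccdc and Wdr genes whose role in cilia is not certain. Within it, 22 genes were named Bbs or Ift, 10 of them without a WT peak, and 9 were among the 828 (40.9%, against 3.98% of all genes): Bbs4, Bbs5 and Bbs7 for subunits of the BBSome, which carries membrane proteins in and out of the cilium, Bbs10 and Bbs12 for chaperonin-like proteins, and Ift22, Ift57, Ift81 and Ift88 for intraflagellar transport. All 9 had Pol II at the promoter in both MEF lists, and the covered share was higher in KO MEFs in all 9, beside 74.9% of the 828 genes. In KO mESCs it ran from 0.398% at Ift57 to 38.2% at Ift22, and in KO MEFs from 3.28% at Bbs7 to 79.3% at Bbs12.

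Bbs4 had 4149 bp of H2Bub1 in KO mESCs and 8489 bp in KO MEFs, and a Pol II promoter fold of 15.4 in WT MEFs and 23.5 in KO MEFs. Ift88 had 1562 bp and 5855 bp, and Pol II folds of 14.1 and 12.5. Neither had a Pol II promoter peak in WT mESCs, and only Bbs4 had one in KO mESCs, at 3.55. Within the cilium and flagellum list, Ccdc66 and Ccdc14 had the most bases covered in both KO lists, with 5348 bp and 5122 bp in KO mESCs and 5064 bp and 4811 bp in KO MEFs.

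Genes named Tmem, which share only a predicted membrane span, made up 19 of 235 (8.09%, interval 4.94 to 12.3%), against 3.98% of all genes. They were 26.4% of the Tmem genes without a WT peak, against 9.50% of all such genes. Of the 19 genes, 18 had Pol II promoter peaks in each MEF list, near the share of the 828 genes. Over the whole Tmem list the share was lower in both MEF lists, with 61.7% in KO MEFs. Ribosomal protein genes made up 8 of 166 (4.82%), near the 3.98% of all genes, which lay inside the interval of this share. Of the 8 genes, 7 encode proteins of the mitochondrial ribosome. These had high covered shares, from 12.6% at Mrpl32 to 91.4% at Mrpl34 in KO mESCs, and all 7 had Pol II at the promoter in both MEF lists, near the 92.2% of the ribosomal protein list in each. They were also short, from 789 bp (Mrpl34) to 9185 bp (Mrps33). The ribosomal protein list held 16 genes without a WT peak, and 8 of these were among the 828, against 9.50% of all such genes.

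Detoxification and steroid enzymes made up 14 of 227 genes (6.17%), with an interval, 3.41 to 10.1%, that held the 3.98% of all genes. They were 7.65% of the 183 without a WT peak, under the 9.50% of all such genes. Of the 14 genes, 8 were Ugt1a genes, glucuronidation enzymes whose gene records overlap. All 8 had 528 bp covered in KO mESCs by 1 peak, and Dnajb3, which lies within their records, had 528 bp covered as well. In KO MEFs the 8 genes differed, from 1 peak and 375 bp at Ugt1a2 to 7 peaks and 9648 bp at Ugt1a10. With Dnajb3 they shared peaks and so are not separate places in the genome. Immune genes made up 15 of 450 (3.33%), near the background, and 4.49% of the 334 without a WT peak, under the 9.50% of all such genes. Among them H2-K1, a class I histocompatibility antigen, had 872 bp and 1959 bp covered and a Pol II fold of 13.8 in WT and 20.5 in KO MEFs. Ubiquitin pathway genes made up 16 of 387 (4.13%), near the background, and 15.2% of the 105 without a WT peak. They included the proteases Usp29 and Usp40 and March2, which had the highest H2Bub1 fold of the 828 genes in KO MEFs, 7.80. A KO MEF peak in March2 also overlapped a WT MEF peak that lay 286 bp outside the gene.

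Chemosensory receptor genes were nearly absent. Of 1510, 1 was among the 828 (0.0662%, interval 0.00168 to 0.368%), the vomeronasal receptor Vmn1r4. Of 92 neurotransmitter receptor genes none was, with an exact interval up to 3.93%, close to the background of 3.98%. Cell adhesion and axon guidance genes gave 3 of 261 (interval 0.238 to 3.32%), Lrrc56, Lrrn4cl and Plxna4. For the next 4 lists the interval held the background. Ion channels gave 2 of 176 genes, Itpr1 and Hcn4 (interval to 4.04%). Secreted ligands gave 1 of 84, Wnt2b (to 6.46%). Matrix and matrix protease genes gave 4 of 173, Adamts4, Itga7, Itgb3 and Thbs3 (to 5.81%), and solute carriers 9 of 372 (2.42%, to 4.54%). Of the 1510 chemosensory receptor genes, 1504 had no WT peak.

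By chromosome, the share of genes ran from 2.20% on chromosome 11 and 2.40% on chromosome 8 to 5.61% on chromosome 13 and 5.79% on chromosome 1. Of the genes without a WT peak it ran from 6.91% on chromosome 7 to 14.6% on chromosome 12. Every autosome held at least 18 of the 828 genes.

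At the edge of the condition, Car7 was included with 2516 bp covered in KO mESCs and 3 bp in KO MEFs, Morn5 with 40 bp and 9 bp and Acad12 with 12 bp and 1077 bp. In KO mESCs 10 genes had under 100 bp covered, and in KO MEFs 5 genes. Just outside it, Eif2a, with 2608 bp and 11585 bp covered in KO, was left out for 26 bp of WT mESC peak, and 20 genes with KO peaks in both cell types had no more than 100 bp of WT peak. 4930426L09Rik, with 1011 bp covered in KO MEFs, lay 9 bp from a KO mESC peak. Of the 1359 genes that gained in 1 cell type, 256 had a KO peak of the other within 5000 bp. The number of genes thus rests on thresholds: with the KO H2Bub1 lists alone held to a −log10 q of at least 3 it was 326, and with WT and KO lists both held to that value it was 3927, because weak WT peaks were then dropped as well.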

How the data were processed

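The authors sequenced the libraries as short single-end reads and, per the labels' processing notes and the methods, used bcl2fastq 2.17.1.14, aligned reads to mm10 with Bowtie 1.0.0 and called broad (H2Bub1) and narrow (Pol II) peaks per library with MACS2 2.1.1.20160309. All chromatin buffers contained N-ethylmaleimide, which inhibits cysteine proteases such as deubiquitylases. The control library and thresholds are not given in the sources used here. Signal was scaled by the authors with size factors over intergenic regions for H2Bub1 and by total mapped reads for Pol II, and how this entered the calls is not stated. Each deposited peak has a fold (a linear ratio over local background), a −log10 p, a −log10 q, a display score that was not used and, in the narrow lists, a summit offset in bases from the peak start, used here. The lowest deposited −log10 q was 1.00 to 1.42. Of 16 samples in the labels, 8 with peak lists were used, and the inputs and the serine 2 phosphorylated Pol II libraries were not analysed here.

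Positions were taken 1-based and set against GENCODE M21 (GRCm38). All 245648 peaks on the assembled chromosomes ended inside their chromosome. A call needed 1 bp. A covered share is the part of the gene body inside peaks, and a Pol II promoter peak reaches within 1000 bp of the gene record's TSS. Families were collected by symbol (24 lists). Peak width and list length can depend on read depth, which the peak lists do not give and which was not used here. The functions were tested on simulated lists over 20807 genes: 100% of 200 planted both-gain genes were recovered and 0 others were called. Peaks were planted only from the TSS inwards, in genes at least 5000 bp from any other protein-coding gene. Peaks shared with neighbouring genes and calls of few bases were thus not simulated, and the result says nothing on them. Scripts ran in Python 3.11.15 with pandas 2.3.3, scipy 1.17.1 and numpy 2.4.6, and plots were drawn with matplotlib 3.10.9.

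The members, lists and rules were chosen with earlier results of these data known. Named genes are the 6 with the most bases covered in both KO lists, the 6 of at least 5000 bp with the highest share in both, the 5 with the highest lowest Pol II fold over 4 lists, up to 5 with Pol II in both KO or both WT lists only, the 5 longest covered without Pol II, the top 2 of each family with at least 5 members, the 3 nearest the threshold and the genes of the H2B proteases and ligase. Others are said to be singled out where named or are family members. Alternatives tried were a −log10 q at or above 3 in all lists or in the KO H2Bub1 lists, equal list lengths, a call at 10% of the body, no WT peak within 5000 bp, genes 5000 bp apart from others, chromosomes X and Y included, joined peaks, a narrow promoter window and any annotated TSS.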

Additional observations from a re-analysis of the deposited data

Results flagged for a closer look

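At the 828 genes the median log2 ratio of Pol II fold, KO over WT, was 0.01 in mESCs (175 genes) and −0.20 in MEFs (698 genes). In mESCs 50.9% of the genes were higher in KO (interval 43.2 to 58.5%), and in MEFs 36.1% (interval 32.5 to 39.8%). The mESC values thus show no direction. The difference between the cell types was not tested, since each group is 1 library, and over all genes the medians were 0.02 and −0.22.

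Chromosome X lies outside the gene set described here, and there 141 of 948 protein-coding genes (14.9%, interval 12.7 to 17.3%) met the same condition, against 3.98% of autosomal genes. Of the genes without a WT peak it was 18.6% on chromosome X and 9.50% on the autosomes. The labels do not give the sex of the cells. Of the 141 genes, 15 (WT) and 60 (KO) had Pol II at the promoter in mESCs, and 129 (WT) and 123 (KO) in MEFs. The Pol II shares over all X-linked genes were not taken, so whether these counts are particular to the 141 genes was not tested. Of all Pol II peaks in mESCs, 16925 of 17074 (WT) and 11632 of 11963 (KO) lay on autosomes. Over all X-linked genes, 17.7% (WT) and 43.1% (KO) had H2Bub1 in mESCs, against 55.7% and 62.1% of autosomal genes, and 8.44% and 36.1% in MEFs, against 31.7% and 54.3%. None of 183 genes on chromosome Y met the condition.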

How the results depend on the processing

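Across 10 settings, 114 values of 14 results were recomputed. Of these, 51 stayed inside the interval of the reported value or within 1.5 times the count and 63 moved. The order of the WT and KO Pol II shares, KO higher in both cell types as reported, turned in both with a −log10 q of at least 3 in all lists and in MEFs with the narrow promoter. Further values, 21 of the 63, belong to results not listed singly here (length, place, CpG ratio and peaks of their own).

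With a −log10 q of at least 3 asked of all lists, 3927 genes met the condition, 326 of them among the 828 (39.4% of the 828 and 8.30% of the 3927). Pol II shares were then 51.0% (WT) and 49.3% (KO) in mESCs and 93.2% and 93.0% in MEFs, covered shares 20.9% (mESCs) and 41.7% (MEFs), and the TSS was inside a peak in 70.8% and 70.9%. With that value asked of the KO H2Bub1 lists alone, 326 genes were left, with Pol II in 41.4% and 41.4% (mESCs) and 92.9% and 92.9% (MEFs) and the TSS inside in 64.1% and 70.9%. Equal list lengths kept 733 genes, with Pol II in 24.7% (WT) and 34.0% (KO) in mESCs and 88.3% (WT) and 90.3% (KO) in MEFs and the TSS inside in 57.7% (MEFs).

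Asking for 10% of the body left 332 genes, with Pol II in 92.8% (WT) and 92.8% (KO) in MEFs, covered shares of 28.5% and 47.7% and the TSS inside in 51.5% and 61.1%. Without genes that had a WT peak within 5000 bp, 532 were left, with Pol II in 25.4% (WT mESCs), a covered share of 6.22% (mESCs) and the TSS inside in 36.5% and 45.9%. Genes at least 5000 bp from any other numbered 296, with Pol II in 23.0% (WT) and 28.4% (KO) in mESCs, a covered share of 5.33% (mESCs) and the TSS inside in 32.8% and 42.2%. The smaller numbers come from fewer genes being admitted, and the cause of the other shifts was not tested.

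A promoter from 100 bp before to 300 bp after the TSS gave Pol II in 27.9% (WT) and 28.0% (KO) in mESCs and 85.3% (WT) and 84.4% (KO) in MEFs. Any annotated TSS gave 92.1% (WT) and 93.1% (KO) in MEFs. In these settings the MEF shares stayed above the mESC shares. With chromosomes X and Y there were 969 genes, and joining peaks less than 1000 bp apart kept all 828. No paired analysis was possible because each group is 1 library. The peak lists do not give read depth, so a gene without a peak may lie under the detection limit of its library.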
